A study of Mus musculus with 8 samples.

Results

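The T cell receptor loci of the mouse are the alpha/delta locus, from 52427967 to 54224198 on chromosome 14 of GRCm38, the beta locus, from 40891296 to 41558371 on chromosome 6, and the gamma locus, from 19178042 to 19356476 on chromosome 13. H3K27ac peaks were selected on position, as those with at least 1 base inside these limits, and on having been called at all in either of the lists that the authors deposited. Of 34553 peaks in wt cells 130 were taken, and of 29902 peaks in ΔIkE120 cells 103, or 233 of 64455 in all. The limits hold 270 annotated receptor gene segments, among them the constant segments *Trac*, *Trdc*, *Trbc1* and *Trbc2*.

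The series asked what an enhancer of *Ikzf1*, the gene of the transcription factor Ikaros, does at its own locus and beyond. H3K27ac was measured by ChIP-seq in wt cells of the mouse line P5424, a T cell precursor line, and in ΔIkE120 cells, a clone of the same line in which CRISPR/Cas9 removed the IkE120 enhancer on chromosome 11 from both alleles. Each genotype had 1 library, and the ΔIkE120 cells were 1 clone, so a difference caused by the deletion cannot be told apart from a difference between clones or between libraries. The stimulation state of the cells used for ChIP-seq is not given in the sources used here, the read depth of the libraries is unknown, and the values are therefore described with no test.

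The genes of T cell receptors are assembled in the thymus by V(D)J recombination, which joins a variable (V), sometimes a diversity (D), and a joining (J) segment upstream of a constant (C) segment. Enhancers near the C segments and promoters near the D and J segments open the loci to the recombinase, and H3K27ac, an acetylated lysine of histone H3, marks active enhancers and promoters. P5424 cells come from mice deficient in the recombinase and in p53, so their receptor loci are known to stay in germline order.

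All T lineage markers had a peak in both genotypes, and some markers of other lineages did too. A peak lay within 1 kb of the gene at 11 of 11 T lineage markers in each list (*Cd3e*, *Cd3d*, *Cd3g*, *Thy1*, *Tcf7*, *Gata3*, *Bcl11b*, *Lck*, *Cd8a*, *Cd4* and *Ptcra*), against 55.3% of 21900 protein-coding genes in wt and 53.6% in ΔIkE120. Among B lineage markers, *Cd79a*, *Ebf1* and *Blnk* had a peak in both lists and *Pax5* in wt only, while *Cd79b* and *Ms4a1* had none in either list. Of 5 myeloid markers, *Itgam* had a peak in both lists and *Mpo* in wt only, while *Lyz2*, *Csf1r* and *Cebpa* had none. The authors' peak caller gave each peak a q-value, and the strongest peak at *Itgam*, at −log10 q 24.6 for wt and 30.0 for ΔIkE120 (percentile 97.7 and 98.9), was above those of all T lineage markers, of which the highest was at *Cd3e* (24.0 and 15.8). None of 3 NK cell markers had a peak. Of 3 markers of embryonic stem cells, *Esrrb* and *Pou5f1* had a peak in both lists and *Nanog* in neither. What these peaks at genes of other lineages contributed to the lists was not tested.

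Most of the peaks lay among the V segments, and the share of bases covered differed between the parts and between the loci. A peak was given the part of the segment nearest to it, with D segments counted among the joining part, and the bases of a locus were divided in the same way. The variable part, 178 segments over 2254313 bases, held 99 wt and 76 ΔIkE120 peaks, which covered 62706 bases (2.78%) in wt and 43977 (1.95%) in ΔIkE120. The joining part, 84 segments over 282829 bases, held 28 and 24 peaks, with 21224 bases (7.50%) and 19313 (6.83%) covered. The constant part, 8 segments over 104601 bases, held 3 peaks in each list, with 1610 (1.54%) and 1450 (1.39%) bases covered. Of the bases of the constant part, 80938 belong to gamma, which had no peak there, and all 3 peaks lay in beta. In beta, 13.9% of the constant part was covered in wt and 12.5% in ΔIkE120, and 4.99% and 4.68% of the joining part. These shares follow from the split by nearest segment, which gives a long stretch before *Trbd1* with few peaks to the joining part and most of a peak of the enhancer stretch to the constant part. In alpha/delta the joining part was the densest, at 12.9% and 11.6%. By locus, alpha/delta held 112 wt and 84 ΔIkE120 peaks, beta 17 and 19, and gamma 1 and 0.

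Over all 3 loci, the wt peaks covered 85540 bases and the ΔIkE120 peaks 64740, which puts the ratio of ΔIkE120 to wt at 0.757. Over the whole lists the ratio was 0.879, so the ΔIkE120 list covered fewer bases as a whole, and the difference was larger within the receptor loci. The ratio was 0.701 in the variable, 0.910 in the joining and 0.901 in the constant part. The lower value came from the variable part of alpha/delta, at 0.671, whereas the variable part of beta was at 1.08. The latter includes peaks of the beta enhancer stretch that are nearest to *Trbv31*, and over that stretch alone the ratio was 1.32, so 1.08 does not describe the V segments by themselves. Bases covered in both lists made up 62.4% of the wt and 82.5% of the ΔIkE120 bases in the loci, against 73.5% and 83.6% over the whole lists. With the same number of top-ranked peaks from each list, the ratio was 0.825 in the loci and 0.942 over the lists.

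Of the wt peaks in the loci, 47 of 130 (36.2%, exact 95% binomial interval 27.9% to 45.0%) were not overlapped by a ΔIkE120 peak, while 25.6% of all wt peaks were not. Of the ΔIkE120 peaks, 17 of 103 (16.5%, 9.92% to 25.1%) were not overlapped by a wt peak, against 13.6% of all ΔIkE120 peaks. These intervals cover counting error only. By part, wt peaks of 1 list only numbered 42 in the variable, 5 in the joining and 0 in the constant part, and those of ΔIkE120 14, 3 and 0. By locus, they numbered 42 and 11 in alpha/delta, 4 and 6 in beta, and 1 and 0 in gamma. Most of them were weak, as were peaks of 1 list only in general. The median −log10 q of the peaks of 1 list only was 2.18 in wt and 2.02 in ΔIkE120, against 4.44 and 3.62 for the overlapped peaks of the loci. Over the whole lists, the medians of the peaks of 1 list only were 2.15 and 2.04. Of the 47 wt peaks, 4 reached the median of their list, as did 1 of the 17 ΔIkE120 peaks. Of the 17 peaks found in ΔIkE120 only, 11 (64.7%) had a wt peak within 500 bases, and of the 47 found in wt only, 10 (21.3%) had a ΔIkE120 peak that near. The same shares over all peaks of 1 list only were 27.8% in ΔIkE120 and 18.6% in wt. When such neighbours were counted as shared, the share of ΔIkE120 peaks without a partner was 5.83%, and with the analysis kept to peaks whose −log10 q reached the median of their list, it was 3.13%, or 1 of 32 peaks. Over the whole lists these shares were 9.80% and 7.69%. For wt peaks the shares under these alternatives were 28.5% and 41.5% in the loci, against 20.8% and 19.9% over the whole list. The 41.5% stands for 22 of 53 stronger wt peaks, with the ΔIkE120 list also cut at its median. Of these 53 peaks, 4 had no ΔIkE120 peak of any strength. The others among the 22 overlapped a ΔIkE120 peak that the cut had removed.

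The peaks of the receptor loci ranked below the middle of their lists. Their median −log10 q was 3.42 in wt and 3.19 in ΔIkE120, against 4.12 and 4.47 over all peaks, and their median length was 557.5 bases in wt and 493 in ΔIkE120, against 603 and 628. Their fold enrichments were often low. A fold enrichment under 2 was found for 24 of 130 wt peaks (18.5%) and 17 of 103 ΔIkE120 peaks (16.5%) in the loci, compared with 3.53% and 2.67% of all peaks. The median enrichment was lowest in the 3 peaks of the constant part, at 1.51 in wt and 1.67 in ΔIkE120, followed by the joining part, at 1.90 and 2.05, and the variable part, at 2.97 and 3.01. Depth being unknown, neither the q-value nor the enrichment was compared between lists other than by rank.

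The constant segments, which encode the part of each receptor chain that is shared by all receptors of a class, carried no peak. *Trac*, the alpha constant segment from 54220521 to 54224198 on chromosome 14, had 0 peaks in wt and 0 in ΔIkE120. Upstream of it, the nearest peak was 8513 bases away in wt and 26319 bases away in ΔIkE120, and downstream the distances were 2376 and 2480 bases. *Trdc*, the delta constant segment from 54142851 to 54146108, also had 0 in each list. Its nearest peaks ended 3907 bases before it in wt and 3928 in ΔIkE120, and began 6058 and 6141 bases after it.

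The beta locus has a pair of constant segments, each behind its own D and J segments, and both were closer to acetylated chromatin. *Trbc1*, from 41538219 to 41539665 on chromosome 6, had 0 peaks in each list, but a small peak ended 885 bases before it in wt and 845 bases before it in ΔIkE120. *Trbc2*, from 41546730 to 41548181, likewise had 0, with a small peak ending 887 bases before it in wt and 1110 in ΔIkE120. The peak before *Trbc1* was near the bottom of its list, at −log10 q 1.29 in wt and 1.59 in ΔIkE120. The peak before *Trbc2* was at 1.71 in wt and 3.70 in ΔIkE120, or percentile 8.95 of the 34553 wt peaks and percentile 42.3 of the 29902 ΔIkE120 peaks. It is singled out after the values were seen, and because the lists differ in length, no change at the peak is read from these percentiles. The third peak of the constant part lay 3864 bases past *Trbc2* in wt, from 41552046 to 41553102, and 4007 bases past it in ΔIkE120, from 41552189 to 41553141, among the peaks of the beta enhancer stretch. The gamma constant segments *Trgc1*, *Trgc2*, *Trgc3* and *Trgc4* had 0 peaks within 10 kb in either list.

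The transcripts of *Trbc1* and *Trbc2* are near copies, so a short read from within a stretch that they share can fit either segment. In the genome the segments span 1447 and 1452 bases, and their sequence outside the transcripts was not compared. In the GENCODE M1 transcripts, matched by symbol, the sequences are 512 and 521 bases long, and the first 512 bases differ at 24 positions (95.3% identical). The first 259 bases are the same in both. Of the 463 words of 50 bases in *Trbc1*, 283 (61.1%) also occur in *Trbc2*. How the aligner placed reads that fit both segments is not given in the sources used here, and its part in the absence of peaks was not tested. The stretch with all 24 differences, from base 213 to base 512 of each transcript and read 5′ to 3′, is shown with the differing bases in capitals.
Trbc1: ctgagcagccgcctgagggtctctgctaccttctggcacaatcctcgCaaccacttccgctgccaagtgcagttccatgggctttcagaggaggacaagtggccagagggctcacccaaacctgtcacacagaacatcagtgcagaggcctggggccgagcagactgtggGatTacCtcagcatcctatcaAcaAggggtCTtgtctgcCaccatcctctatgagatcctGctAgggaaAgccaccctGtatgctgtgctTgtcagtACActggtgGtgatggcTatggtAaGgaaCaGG
Trbc2: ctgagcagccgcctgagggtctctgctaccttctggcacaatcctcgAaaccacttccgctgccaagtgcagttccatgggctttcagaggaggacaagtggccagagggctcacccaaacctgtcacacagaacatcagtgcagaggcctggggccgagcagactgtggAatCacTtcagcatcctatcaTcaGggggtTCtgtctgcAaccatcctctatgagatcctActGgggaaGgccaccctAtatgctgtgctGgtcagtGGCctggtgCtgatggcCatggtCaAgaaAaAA

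At the beta locus, the joining segments themselves were acetylated. In both lists 1 long peak covered the whole *Trbj1* cluster of 7 segments, from 41533490 to 41536543 (3054 bases) in wt and from 41533536 to 41536561 (3026 bases) in ΔIkE120. Another covered the *Trbj2* cluster of 7 segments, from 41542503 to 41544552 (2050 bases) in wt and from 41542351 to 41544681 (2331 bases) in ΔIkE120. All bases between the first and last segment of each cluster were covered in each list. The −log10 q was 5.80 in wt and 5.88 in ΔIkE120 at *Trbj1*, and 9.64 and 10.9 at *Trbj2*. The fold enrichment of these peaks was low, at 1.84 in each list at *Trbj1*, and 2.02 in wt and 2.06 in ΔIkE120 at *Trbj2*. The medians over all peaks were 3.04 in wt and 3.16 in ΔIkE120. The D segments lay just outside, *Trbd1* at 277 bases from the *Trbj1* peak in wt and 323 in ΔIkE120, and *Trbd2* at 326 and 174 bases from the *Trbj2* peak. In the 1 kb upstream of *Trbd1*, 0 bases were under a peak in either list, and in the 1 kb downstream, over the start of the *Trbj1* peak, wt peaks covered 723 bases and ΔIkE120 peaks 677. The peaks of both clusters thus lay within 1 kb of all 16 D and J segments of the locus in both lists.

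Upstream, 2 further peaks were nearer to *Trbd1* than to any other segment. A peak from 41527254 to 41528017 in wt and from 41527460 to 41527887 in ΔIkE120 lay 5183 and 5313 bases before *Trbd1*, with a −log10 q of 3.42 and 4.17. The other, from 41493467 to 41494270 in wt and from 41493553 to 41494030 in ΔIkE120, lay inside the pseudogene *Gm29813*, 38930 bases before *Trbd1* in wt, with 6.01 for wt and 6.56 for ΔIkE120. All 4 peaks of the beta joining part were found in both lists. Trypsinogen genes, expressed in the pancreas, lie in this locus among its V segments and before *Trbd1*, and 0 of 7 genes with a *Prss* or *Try* symbol in the locus had a peak in either list.

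**Figure D1:**
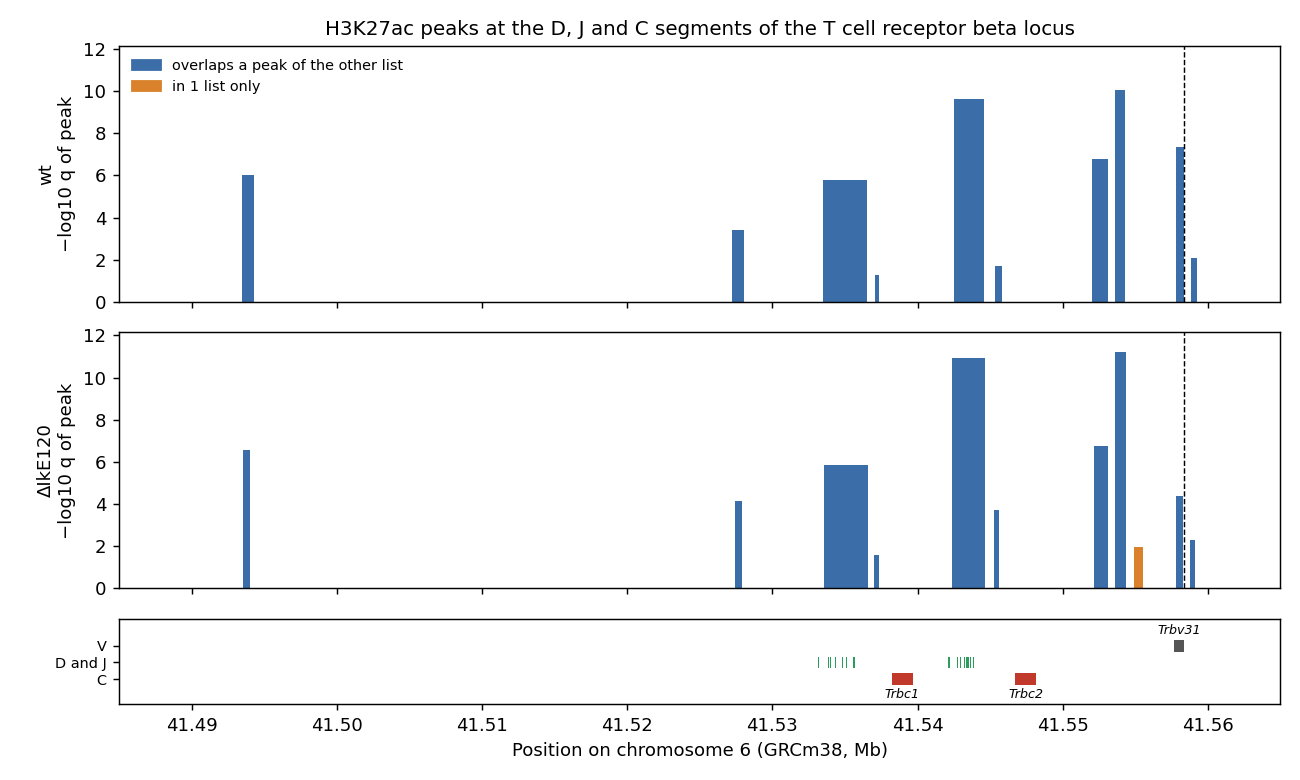
H3K27ac peaks of wt (top) and ΔIkE120 cells (middle) at the D, J and C segments of the beta locus, plotted as bars from the start to the end of each peak on chromosome 6 (GRCm38, Mb), with the −log10 q of the peak within its own list as height, which is not comparable between lists. The segments are drawn below and the dashed line is the end of the locus. The long peaks over both J clusters are present in each list, and *Trbc1* and *Trbc2* hold no peak.

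Around the D delta segments and the first J delta segment, the alpha/delta locus held a similar group of broad, weakly enriched peaks. A peak over *Trdj1* ran from 54122266 to 54123246 in wt and from 54122247 to 54123322 in ΔIkE120, with a −log10 q of 8.52 and 7.30 and a fold enrichment of 1.78 and 1.80. It began 24 bases past *Trdd2* in wt and 5 bases past it in ΔIkE120, and covered 95.8% of the bases from *Trdd2* to *Trdj1* in wt and 97.8% in ΔIkE120. It was flanked by a peak before *Trdd2*, from 54121314 to 54122092 in wt and from 54121259 to 54122068 in ΔIkE120, with a −log10 q of 7.45 and 9.39. On its other side the wt list had 2 peaks, from 54123595 to 54124557 and from 54124751 to 54125240, where the ΔIkE120 list had 1 peak from 54123618 to 54125100. *Trdd1* had no peak within 1 kb, but a pair of peaks ended 1117 bases before it in wt and 1294 in ΔIkE120. The stronger of the pair, from 54110254 to 54111186 in wt and from 54110456 to 54111185 in ΔIkE120, had a −log10 q of 8.20 and 10.3. It was the highest-ranked peak of the alpha/delta joining part in ΔIkE120, whereas the peak over *Trdj1* was the highest in wt. Weaker peaks of both lists lay further upstream, near 54097438, 54102465 and 54103290, with a −log10 q of 4.09, 5.99 and 1.90 in wt. The segments here lie within the long noncoding gene *Gm30275*, where wt peaks covered 8454 bases and ΔIkE120 peaks 7782.

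Toward *Trac*, peaks became sparse along the *Traj* segments, the joining segments of the alpha chain. Of 60 *Traj* segments, 22 lay within 1 kb of a peak in wt and 11 in ΔIkE120, and 4 and 3 were overlapped by one. Over the 20 segments from *Traj61* to *Traj42*, wt peaks covered 13.5% and ΔIkE120 peaks 14.3% of the bases. Over the 20 from *Traj41* to *Traj22* the covered share was 6.56% and 4.14%, and over the 20 from *Traj21* to *Traj1* it was 2.61% and 0%. The strongest of these peaks in both lists lay at *Traj49* and *Traj48*, from 54168726 to 54169780 in wt and from 54168780 to 54169916 in ΔIkE120, with a −log10 q of 8.21 and 7.08. Next to it, 2 wt peaks at 54170372 and 54171209 corresponded to 1 ΔIkE120 peak from 54170165 to 54171548. Peaks at *Traj32* (−log10 q 4.02 in wt and 2.43 in ΔIkE120) and *Traj26* (2.29 and 2.31) were also shared. At *Traj60*, next to the 5′ end of the cluster, both lists had a peak, at percentile 50.4 of the wt list (−log10 q 4.17) and percentile 6.57 of the shorter ΔIkE120 list (1.65), again singled out after the values were seen. The peaks at *Traj54*, *Traj37*, *Traj12* and *Traj7* were found in wt only, with a −log10 q of 1.60, 1.86, 1.44 and 2.65. The other peaks of 1 list only in the joining part lay before *Trdd1*, at 54108214 in wt and at 54101981 and 54108525 in ΔIkE120, and 72 bases before *Trdj2* in ΔIkE120, at 54136377.

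**Figure D2:**
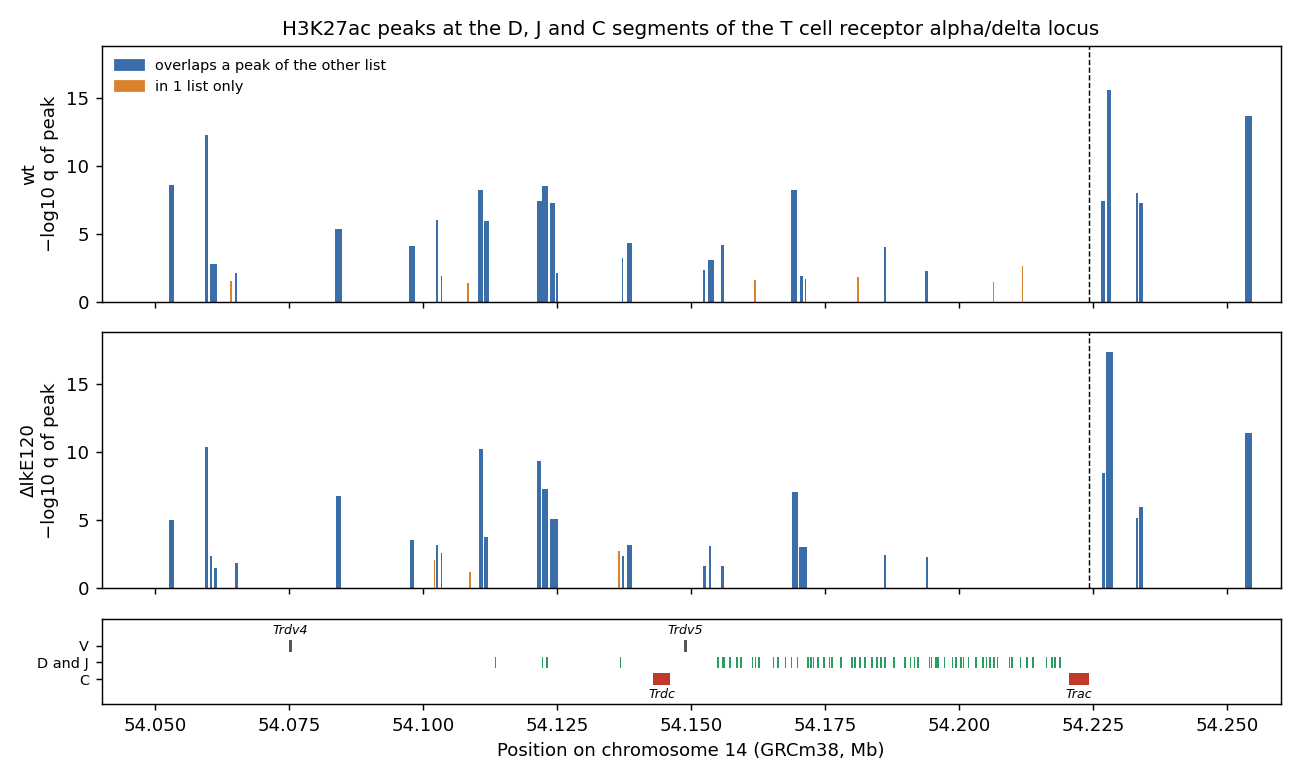
H3K27ac peaks of wt (top) and ΔIkE120 cells (middle) at the D, J and C segments of the alpha/delta locus and downstream of it, as bars from the start to the end of each peak on chromosome 14 (GRCm38, Mb), with the −log10 q within its own list as height, not comparable between lists. The dashed line is the end of the locus, at 54224198. *Trdc* and *Trac* hold no peak, peaks thin out along the J alpha segments, and the peaks past the end of *Trac* are present in each list.

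The stretches between segments in which the known enhancers and a germline promoter lie held peaks in both genotypes. The peaks covered 18.4% to 24.9% of the bases of a stretch in wt and 17.5% to 26.5% in ΔIkE120. Between *Trdj2* and *Trdc*, where the delta enhancer lies, each list had 2 peaks, which covered 1247 bases in wt and 1055 in ΔIkE120. The larger was at 54137985 in wt with a −log10 q of 4.32 and at 54138123 in ΔIkE120 with 3.19. Between *Trdv5* and *Traj61*, where the TEA promoter drives germline transcription through the J alpha segments, 2 peaks per list covered 1446 bases in wt and 1088 in ΔIkE120. Here the −log10 q was 2.33 and 3.08 in wt and 1.62 and 3.13 in ΔIkE120. The beta enhancer stretch, between *Trbc2* and *Trbv31*, held 2 wt peaks over 1752 bases and 3 ΔIkE120 peaks over 2308 bases. The highest-ranked ran from 41553617 to 41554311 in wt and from 41553585 to 41554328 in ΔIkE120, with a −log10 q of 10.1 and 11.2, or percentile 78.7 and 78.9 of the lists. The additional ΔIkE120 peak, from 41554940 to 41555550, was weak (−log10 q 1.97) and began 628 bases past the nearest wt peak. None of these stretches lacked a peak in ΔIkE120 cells. A further stretch, 1 kb to each side of *Trbd1*, was set for the first D beta promoter. It had 723 covered bases in wt and 677 in ΔIkE120, all downstream of *Trbd1*, and 0 upstream in either list.

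The alpha enhancer stretch lies outside the limits, between *Trac* and *Dad1*, a gene expressed in many cell types. It held 4 peaks in each list, with 2711 bases under the wt peaks and 2992 under the ΔIkE120 peaks, so that the ratio was 1.10. The strongest, from 54227533 to 54228446 in wt and from 54227492 to 54228669 in ΔIkE120, had a −log10 q of 15.6 and 17.4, or percentile 90.1 and 90.5. It thus ranked above all joining-part peaks of the locus in both lists. The −log10 q of the peak nearest to *Trac* was 7.44 in wt and 8.51 in ΔIkE120.

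Since the limits decide which peaks are members, those next to them are given here. At alpha/delta, the last peak inside was at 54211724 in wt and 54193809 in ΔIkE120, and the first beyond the end began at 54226575 and 54226679. At the start of the locus, the first peak inside was over *Trav1*, at 52428546 in wt and 52428533 in ΔIkE120, and the nearest outside was 290 bases away in wt and 84202 in ΔIkE120. At beta, the last peak inside lay over *Trbv31*, and the next, at 41558827 in wt and 41558749 in ΔIkE120, began 456 and 378 bases past the end. At its start, a peak over *Trbv1* crossed the limit in both lists, and the nearest peak wholly outside was 283 bases away in wt and 419081 in ΔIkE120. At gamma, the nearest peaks outside were 38744 and 38889 bases away in wt and 229134 and 38862 in ΔIkE120. With limits widened by 50 kb, the ratio of covered bases was 0.774.

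Along the alpha/delta locus, the covered share was higher in the bins toward the 3′ end than in those at the 5′ end, though it did not rise from each bin to the next. In bins of 200 kb from the 5′ end, the covered share in wt was 1.13%, 1.11%, 0.173%, 2.60%, 2.18%, 3.90%, 7.93% and 6.93%, and in the last bin, of 196232 bases, it was 10.2%. This last bin holds 68 segments, of which only 2 are V segments. In ΔIkE120, the shares in the same order were 0.980%, 0%, 0%, 1.96%, 1.17%, 2.67%, 5.33%, 5.06% and 8.76%. Each bin was thus less covered in ΔIkE120 than in wt. The bins from 52627967 to 53027966 held 37 V segments and 7 wt peaks, of which all 7 were found in wt only, with no ΔIkE120 peak, while 25.6% of all wt peaks were of that list only. These bins were singled out after the values were seen, and all 7 peaks were below the median −log10 q of the wt list, 4.12.

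Within 1 kb of a V segment, a peak was found for 50 of 136 segments of this locus in wt (36.8%) and for 38 (27.9%) in ΔIkE120, and all 38 were also among the 50. The highest-ranked peak of each list lay over a V segment near the 3′ end of the cluster. At *Trav21-dv12*, from 53876016 to 53876752, the peak had a −log10 q of 18.7 in wt, the highest of the loci in that list, and of 9.86 in ΔIkE120. At *Trdv2-2*, from 53960993 to 53961602, it was 16.7 in wt and 14.8 in ΔIkE120, the highest of the loci in ΔIkE120. *Trav15-1-dv6-1* followed in wt with 15.2, against 8.99 in ΔIkE120. *Trav18* had 10.0 in wt and 10.9 in ΔIkE120, so these segments did not keep the same order in both lists. Other V segments of the locus with a peak in both lists were *Trav4-4-dv10* (11.2 in wt, 8.66 in ΔIkE120), *Trav6-7-dv9* (10.9, 6.61), *Trav13-5* (10.2, 8.13), *Trav14-1* (9.81, 7.26), *Trdv2-1* (8.80, 8.05), *Trav15-3* (8.49, 8.36), *Trav4-3* (8.18, 4.89), *Trav13-4-dv7* (7.80, 3.78), *Trav13-1* (6.16, 2.88) and *Trav23* (5.52, 5.06). Further V segments with a peak in both lists were *Trav1*, *Trav2*, *Trav3-4*, *Trav5-4*, *Trav6-3*, *Trav9-2*, *Trav9-4*, *Trav12-4*, *Trav13-2*, *Trav14-3*, *Trav15-2-dv6-2*, *Trav16*, *Trav19*, *Trav20* and *Trdv1*. The last V segments of the locus, *Trdv4* and *Trdv5*, had no peak within 1 kb. *Trdv4* was 8101 bases from a wt peak and 8138 from a ΔIkE120 peak, and *Trdv5*, which lies inverted behind *Trdc*, 2965 and 3048 bases. Between *Trdv3* and *Trdv4*, however, a peak at 54059281 had a −log10 q of 12.3 in wt and, at 54059304, of 10.4 in ΔIkE120, 15146 bases from the nearest segment in wt.

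**Figure D3:**
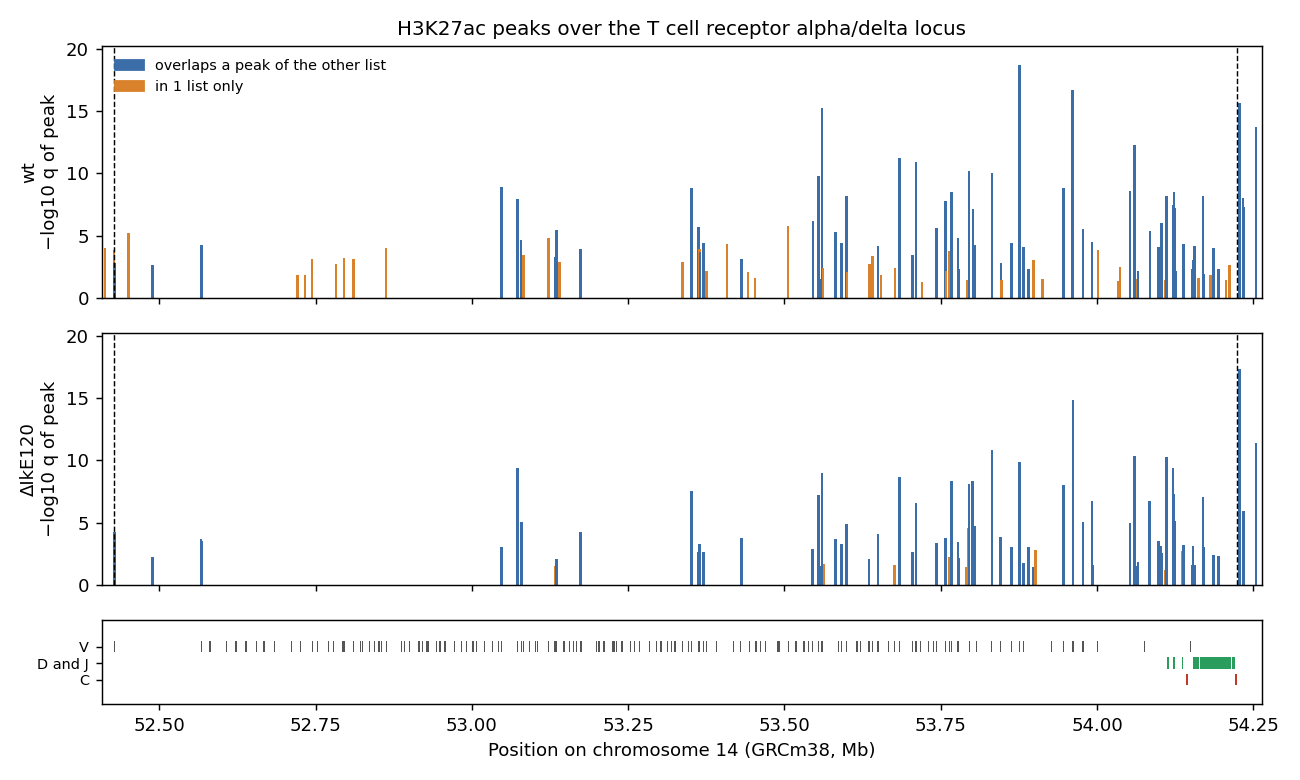
H3K27ac peaks of wt (top) and ΔIkE120 cells (middle) over the alpha/delta locus on chromosome 14 (GRCm38, Mb), as bars whose height is the −log10 q within each list, not comparable between lists, and whose width is enlarged for visibility. Segments are drawn below and dashed lines mark the limits. Peaks are denser toward the 3′ end, and the 7 wt peaks between 52627967 and 53027966 have no counterpart in ΔIkE120.

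In alpha/delta, more of the covered bases lay on the V segments themselves than on either side. Summed over the 136 V segments of the locus, wt peaks covered 20670 bases within the segments, 9950 in the 1 kb upstream and 9992 in the 1 kb downstream. In ΔIkE120 these sums were 15063, 6915 and 6793 bases. Counted by segment, 42 had covered bases upstream and 32 downstream in wt, and 28 and 24 in ΔIkE120. The segments were taken to lie in the direction of the locus, with *Trdv5* and *Trbv31* inverted. For 98 of 255 alpha/delta and beta segments GENCODE M1 gave a strand by symbol, and 0 of the 98 differed from this. At beta, with 35 V segments, the upstream 1 kb was covered about as much as the segments, with 1858 covered bases within, 2189 upstream and 896 downstream in wt, and 1915, 1833 and 903 in ΔIkE120. Of the 99 wt peaks of the variable parts, 68 lay within 1 kb of a segment, as did 55 of the 76 in ΔIkE120.

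Part of the V alpha cluster exists in copies, whose segments carry a d or an n in their names beside an unmarked copy nearer to the constant segments. Peaks were found near fewer of the marked copies. Within 1 kb of a peak were 8 of 40 d segments (20.0%), 9 of 34 n segments (26.5%) and 33 of 62 segments without such a mark (53.2%) in wt, and 3 (7.50%), 6 (17.6%) and 29 (46.8%) in ΔIkE120. For 32 names all 3 copies are annotated. In wt, 0 copies were near a peak for 11 names, 1 copy for 15 and all 3 copies for 6. In ΔIkE120, 0 copies were near a peak for 15 names, 1 for 13, 2 for 1 and 3 for 3 names. The names with a peak at all 3 copies in both lists were *Trav13-4*, *Trav14-3* and *Trav16*. The −log10 q at *Trav16d-dv11*, *Trav16n* and *Trav16* was 8.88, 8.80 and 5.58 in wt and 3.09, 7.58 and 3.39 in ΔIkE120. At *Trav15-1* and *Trav15-3* all 3 copies had a peak in wt, whereas ΔIkE120 had peaks at *Trav15n-1* and *Trav15-1-dv6-1* of the former and only at the unmarked copy of the latter. The other marked copies with a peak in both lists were *Trav13d-4*, *Trav13n-4*, *Trav14d-3-dv8*, *Trav14n-3*, *Trav6n-6* and *Trav11n*.

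*Trav10* was the only name with a peak at all 3 copies in wt and at none in ΔIkE120, a pattern singled out after its values were seen. The −log10 q in wt was 3.15 at *Trav10d* (from 52810997 to 52811496), 4.79 at *Trav10n* (from 53122114 to 53122611) and 5.75 at *Trav10* (from 53505790 to 53506286). The nearest ΔIkE120 peak was 235323, 10157 and 38607 bases away. The transcript sequences of *Trav10* and *Trav10n* are alike, and *Trav10d* was not compared. Whether the peaks at the 3 copies are independent of each other was not tested. In the GENCODE M1 transcripts, matched by symbol, the 343 bases of *Trav10* and *Trav10n* differ at 6 positions (98.3% identical), and 103 of 294 words of 50 bases (35.0%) are found in both. Other copies are closer still, with 0 differences between *Trav12d-3* and *Trav12n-3*, *Trav4d-3* and *Trav4n-3*, and *Trav15d-2-dv6d-2* and *Trav15n-2*, and 0 of these 6 segments was near a peak in either list. Whether reads that fit several copies were kept is not given in the sources used here, and the part of shared sequence in the low number of peaks at marked copies was not tested. The first bases of *Trav10* and *Trav10n*, from base 1 to base 300, 5′ to 3′, are shown with all 6 differing bases in capitals.
Trav10: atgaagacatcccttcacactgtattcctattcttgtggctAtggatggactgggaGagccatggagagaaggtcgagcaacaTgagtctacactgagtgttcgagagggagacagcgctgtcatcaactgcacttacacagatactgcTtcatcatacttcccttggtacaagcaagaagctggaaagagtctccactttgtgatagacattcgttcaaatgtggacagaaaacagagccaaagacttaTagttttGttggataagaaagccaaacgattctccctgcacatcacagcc
Trav10n: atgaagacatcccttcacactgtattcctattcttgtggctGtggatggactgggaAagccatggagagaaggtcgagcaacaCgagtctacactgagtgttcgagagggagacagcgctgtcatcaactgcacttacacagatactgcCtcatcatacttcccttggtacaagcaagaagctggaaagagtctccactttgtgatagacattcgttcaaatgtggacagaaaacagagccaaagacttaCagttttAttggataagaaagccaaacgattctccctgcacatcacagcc

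By the −log10 q, the peaks found in wt only in the variable part of alpha/delta were led by that over *Trav10*, followed by 5.22 at 52450937, which is 22060 bases from *Trav1* and overlaps the olfactory receptor gene *Olfr1509*, by *Trav10n* (4.79), by 4.29 at 53407992, which is 10094 bases from *Trav4-2*, and by 4.02 near *Trav15d-1-dv6d-1*. In ΔIkE120, the peaks found in that list only were led by 4.59 near *Trav13-5*, followed by 2.83 at 53901640, which is 19422 bases from *Trdv1*, by 2.29 at *Trav14-3*, 1.68 at a distance of 2629 bases from *Trav15-1-dv6-1* and 1.59 at *Trav9-4*. Of these ΔIkE120 peaks, those at *Trav13-5*, *Trav14-3* and *Trav9-4* began or ended within 130 bases of a wt peak (130, 125 and 35 bases), whereas the 5 wt peaks were at least 10379 bases from any ΔIkE120 peak.

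The peaks near V segments of the beta locus were mostly weak. Among 35 segments, 9 in wt (25.7%) and 8 in ΔIkE120 (22.9%) were within 1 kb of a peak. Of the 35, 13 are pseudogenes, with 0 near a peak in wt and 1 in ΔIkE120. Among the other 22, 9 (40.9%) were near a peak in wt and 7 (31.8%) in ΔIkE120. Without pseudogenes, the counts in alpha/delta were 43 of 119 (36.1%) and 34 of 119 (28.6%), so the beta shares were not lower. Near a peak in both lists were 7 beta segments, namely *Trbv1*, *Trbv2*, *Trbv3*, *Trbv5*, *Trbv12-2*, *Trbv23* and *Trbv31*. *Trbv31*, which lies inverted behind *Trbc2* and next to the beta enhancer, stood apart, with a −log10 q of 7.35 for wt and 4.38 for ΔIkE120. At the other 6 segments the highest value nearby was between 2.36 and 3.31 in wt and between 1.82 and 3.57 in ΔIkE120. The peaks found in wt only were those nearest to *Trbv2* (2.36), *Trbv23* (2.08), *Trbv27* (1.94) and *Trbv12-1* (1.81), of which those at *Trbv2* and *Trbv23* were 259 and 126 bases from a ΔIkE120 peak. The peaks found in ΔIkE120 only were those nearest to *Trbv1* (2.65), *Trbv10* (2.38), *Trbv21* (2.06) and *Trbv5* (2.02), in addition to the weak peak of the enhancer stretch and 1 at *Trbv2* (1.82). In all, peaks of wt took up 13374 bases of the beta locus and those of ΔIkE120 13215, and the ratio was 0.988.

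The gamma locus was nearly empty. Over its 7 V, 4 J and 4 C segments, the only peak was in wt, from 19189977 to 19190266 (290 bases), 101 bases from *Trgv6*, with a −log10 q of 2.03. The ΔIkE120 list had none.

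Percentiles within the lists depend on their length, 34553 peaks in wt and 29902 in ΔIkE120, so the differences between them are given beside those of all pairs and are not read as a change at a peak. Among the 75 pairs of peaks that overlap each other and no further peak, 56 (74.7%) had the higher percentile in wt, compared with 64.2% of 22698 such pairs over the whole lists. The median difference in percentile, ΔIkE120 minus wt, was -7.61 in the loci and -2.99 over the lists. It was -9.20 for the 47 pairs of the alpha/delta variable part, -9.41 for the 15 of its joining part, -11.7 for the 6 pairs of the beta variable part, 0.0345 for the 4 of its joining part and 4.24 for the 3 of its constant part. The ΔIkE120 peak was the shorter for 54 of the 75 pairs (72.0%), against 58.4% over the lists.

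The genes that act together with these loci were acetylated in both genotypes. Each gene of the receptor complex and its early signalling named here had a peak within 1 kb in each list. *Cd3e*, a signalling chain of the receptor, had 5 peaks over 3151 bases in wt and 5 over 3396 in ΔIkE120, with a highest −log10 q of 24.0 and 15.8. *Cd247*, which encodes the zeta chain, had 9157 and 8266 covered bases, and *Ptcra*, the partner of the beta chain before alpha is made, had 1557 and 1929. The kinases *Lck* and *Zap70* had 4318 and 3177 covered bases in wt and 4344 and 2346 in ΔIkE120, and the adaptors *Lat* and *Lcp2* had 2478 and 5335 in wt and 2356 and 4364 in ΔIkE120. *Rag1* and *Rag2*, the recombinase genes, had 1082 and 1703 bases in wt and 1161 and 687 in ΔIkE120, and *Dntt*, which adds bases at the joints, had 3974 and 3909.

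The B cell receptor loci, built of the same kinds of segment but recombined in B cells, held fewer peaks for their length than alpha/delta and beta, with 0.763 wt and 0.436 ΔIkE120 peaks per 100 kb in *Igh*, against 6.24 and 4.68 in alpha/delta and 2.55 and 2.85 in beta. *Igh*, over 2751187 bases of chromosome 12, had 21 wt and 12 ΔIkE120 peaks, which covered 0.429% and 0.239% of it, against 4.00% and 2.87% of alpha/delta and 2.00% and 1.98% of beta. *Igk* had 4 and 1 peaks and *Igl* 0 and 0. In *Igh*, 10 of 21 wt peaks and 2 of 12 ΔIkE120 peaks were of 1 list only, and in *Igk* 3 of 4 and 0 of 1, against 25.6% and 13.6% of all peaks. Peaks of wt without a ΔIkE120 peak were thus not confined to the T cell receptor loci. At the constant segments, a peak lay within 1 kb of *Ighd* in both lists and of *Igkc* in wt only, and *Iglc1*, *Iglc2* and *Iglc3* had none. Next to *Ighm*, both lists had a peak that overlapped the other, and only the wt peak reached into the window of 1 kb, by 4 bases. The gamma locus, at 0.163% covered in wt, was thus closer to the B cell receptor loci than to alpha/delta or beta.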

How the data were processed

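H3K27ac ChIP-seq was compared between 1 wt and 1 ΔIkE120 library of P5424 cells. Per the submitters' processing notes, Bowtie2 2.3.4.3, Bowtie 1.0.0, deepTools 3.2.1 and MACS2 2.1.1 were used in the series and the build was GRCm38. The settings of the peak call and the use of the input in it are not given in the sources used here. Each library has 1 peak list from the authors, whose columns are a score, a fold enrichment and −log10 of the p-value and of the q-value. The deposited score is 10 times the −log10 q-value, cut to a whole number. Read depth is unknown. The 4C-seq files were not used here.

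Peaks were placed among RefSeq GRCm38.p6 segments with Python 3.11.15. An overlap of 1 base counted as shared, and the nearest segment edge to edge gave the part. Exact intervals used scipy 1.17.1. Overlap and coverage code was tested on simulated data. Named were the constant segments, all joining and constant peaks, V segments within 1 kb of a peak in both lists, up to 5 leading peaks of 1 list only per locus, and fixed gene lists. Members and lists were chosen with earlier results of these data known. The genome sequence of GRCm38 was not used here.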

Additional observations from a re-analysis of the deposited data

How the results depend on the processing

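No paired analysis was possible because there was 1 library per genotype. The ratio of covered bases, 0.757, ran from 0.658 to 0.825 under 4 alternatives. The lowest came with only peaks whose −log10 q reached the median of their list, where the whole-list ratio was 0.874. The highest came with the same number of top-ranked peaks from each list, where the whole-list ratio was 0.942. All stayed within 1.5 times of 0.757. The whole-list ratio of 0.879 does too, so this bound does not bear on the difference from the whole lists. The share of wt peaks without a ΔIkE120 peak, 36.2%, ran from 28.5% to 41.5% under 6 alternatives, inside its interval. Over all wt peaks, the shares under the same 2 alternatives were 20.8% and 19.9%. The upper end, 22 of 53 peaks, came from cutting both lists at their medians. It counts wt peaks without a stronger ΔIkE120 peak, and 4 of these 53 had no ΔIkE120 peak of any strength. The share of ΔIkE120 peaks without a wt peak, 16.5%, left its interval under 2 of 6, at 3.13% with the same stronger peaks and at 5.83% when a wt peak within 500 bases counted as shared. With a part given only to peaks within 1 kb of a segment, the joining part had 17 peaks in wt and 12 in ΔIkE120, and the constant part 1 in ΔIkE120, because peaks further from a segment then have no part. With those stronger peaks only, by construction fewer, the variable, joining and constant parts had 40, 12 and 1 peaks in wt and 23, 8 and 1 in ΔIkE120. The order of the parts was the same throughout. Without read depth, a missing peak cannot be told apart from one that fell short of the threshold of the call.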
